A study of Mus musculus with 25 samples.

Results

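Astrocytes purified from the cortex of C57BL/6J mice and kept in culture were sequenced on day 14 in vitro (3 libraries) and on day 7 in vitro (3 libraries). The comparison of these days uses 6 of the 25 libraries of the series, chosen by the day in their labels, and every gene of the deposited table (54429 entries). The cells were isolated by immunopanning, a selection on antibody-coated dishes, with an antibody to HepaCAM, an adhesion protein of the astrocyte surface. The labels name no inhibitor and no vehicle for the day 14 and day 7 cells, and the sources used here give neither the growth factors in their medium nor the age of the mice. Cells from day 2 in vitro (3 libraries) are used where the late step, day 7 to day 14, is set against the early step, day 2 to day 7. The other 16 libraries are from cells given an EGFR inhibitor, a P53 inhibitor, their DMSO controls, HBEGF or HBEGF withdrawal. They enter the choice of the tested genes and the estimate of the spread between libraries, and not the day means of the reported fit.

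Astrocytes arise from radial glia and from dividing local precursors, and they mature over the first postnatal weeks. Maturing cells leave the cell cycle, lose transcription factors and surface proteins of neural precursors, couple through gap junctions, and build end-feet on blood vessels that carry water and potassium channels. They also gain transporters for glutamate and secrete lipoproteins and antioxidant proteins. In culture this programme depends on the medium and on contact between cells.

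The 6 libraries held 4011134 to 8671391 counted reads each, and 9138 to 9635 genes per library had at least 1 RPKM. RPKM scales the reads of a gene by its length and by the counted reads of the library. The length used was the whole gene span, so levels are not compared between genes. The 8 astrocyte markers were all detected, with a summed level of 194, 127 and 111 RPKM on day 14 and 118, 104 and 149 RPKM on day 7 (replicates 1, 2 and 3). A pair of libraries stood apart from the others of their day. Replicate 3 of day 7 had 4.41 RPKM of the proliferation marker Mki67, against 35.0 and 37.6 in replicates 1 and 2, and 5.52 RPKM of the interneuron gene Dlx1, against 0.0393 and 0.0709. Replicate 1 of day 14 had 14.1 RPKM of the cyclin gene Ccnd1, against 37.4 and 40.5 in replicates 2 and 3, and 9.73 RPKM of Gfap, against 2.30 and 2.59. Counts of calls and medians of gene lists are given with and without these libraries where they differ most. Changes and p-values of single genes are from all libraries unless said otherwise. The labels do not say whether replicates are separate animals or cultures, so the spread between libraries may be technical. The p-values rest on a spread pooled over all groups of the series, and not on that of the day 14 and day 7 libraries alone. With the spread of the day 14 and day 7 libraries alone no gene passed, as given below.

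The late step moved few genes beyond the spread between libraries. Of 13850 tested genes, 19 passed the test (0.137%), 7 higher on day 14 (0.0505%) and 12 lower (0.0866%). The test was limma on log2(RPKM + 1) over all 25 libraries, with Benjamini-Hochberg adjustment and a threshold of 0.05. All log2 changes below are on that scale, which understates the change of genes with low values, and every adjusted p is from limma unless voom is named. At an unadjusted p below 0.05 there were 1483 genes (10.7%), 424 higher (3.06%) and 1059 lower (7.65%). The 3 day 14 libraries all lay above the 3 day 7 libraries for 477 genes (3.44%) and all below them for 1379 (9.96%). On reads recovered from the RPKM, voom, a limma fit weighted by read depth, called 22 genes higher (0.16%) and 25 lower (0.182%), among them all 19.

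Changes were small in size on the log2(RPKM + 1) scale. The median absolute log2 change of all tested genes was 0.14, with a median SE of 0.18. For 10872 genes (78.5%) the 95% interval of the change lay within 1 on either side of 0, and among the 2354 genes averaging 5 RPKM or more it did so for 1990 (84.5%). On this scale only 2 of the called genes, Rlbp1 and the pseudogene Gm16179, differed by more than 1. The voom log2 changes, which have no added 1 RPKM, were also beyond 1 for other called genes. They were 1.11 for Selenop, 1.57 for Renbp, 1.16 for Fuca2, -1.14 for Arrdc4, -1.05 for Enc1 and -1.09 for Cdon. In the early step, on the log2(RPKM + 1) scale, 1899 genes were called (13.7%), 571 higher on day 7 (4.12%) and 1328 lower (9.59%). Of these genes 220 differed by at least 1. The steps share the day 7 libraries.

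The 19 calls rest on the full set of libraries. Without day 14 replicate 2 or without day 7 replicate 3 no gene passed limma, with 1668 and 1296 genes at an unadjusted p below 0.05. Without day 7 replicate 2, 3 other genes passed and none of the 19 did. Without day 14 replicate 1, 11 genes passed, 1 higher and 10 lower, and 7 of the 19 were among them. Renbp was the only gene higher on day 14 that passed that fit. Without both libraries that stood apart 3 of the 19 passed, namely Enc1, Polr3k and Rlbp1. No gene passed when only the 9 time course libraries were fitted (938 at an unadjusted p below 0.05) or only the 6 libraries (914). The plot of calls by setting shows these counts.

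**Figure D1:**
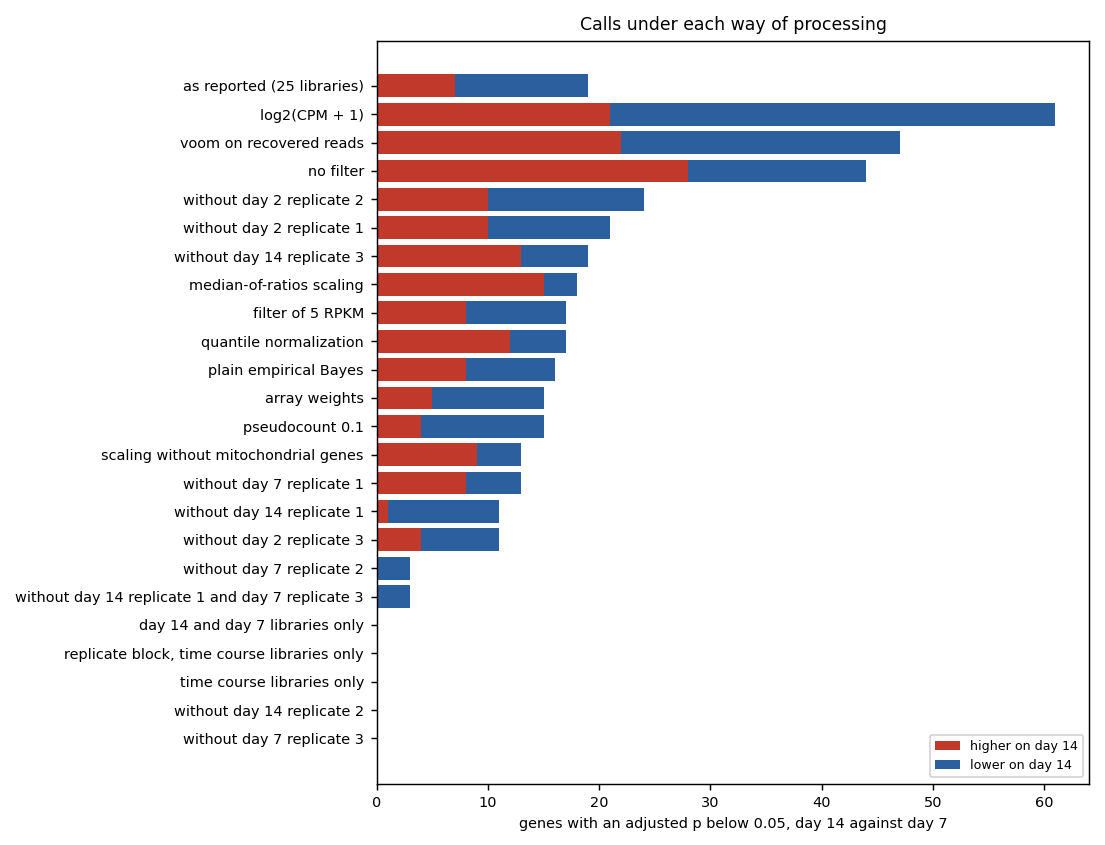
Number of genes called between day 14 and day 7 (horizontal axis, adjusted p below 0.05) under each way of processing (vertical axis), with genes higher on day 14 in red and genes lower on day 14 in blue. The top bar shows the reported 19 genes, the longest bar the 61 genes of log2(CPM + 1), and the 5 empty lines at the bottom are fits in which no gene passed.

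The balance of the calls depended on the scaling. Ribosomal RNA of the mitochondrion took 21.2, 20.2 and 23.9% of the counted reads on day 14, against 19.4, 19.2 and 18.9% on day 7. The groups do not overlap, and the difference of 2.59 percentage points had an exact two-sided permutation p of 0.1, the smallest that 3 against 3 libraries allow. The median log2 change was -0.06 over all tested genes and -0.11 over those averaging 5 RPKM or more. With median-of-ratios scaling these medians were 0.00 and -0.01, and the calls were 15 higher and 3 lower. Quantile normalization gave 12 higher and 5 lower, and scaling without the mitochondrial genes gave 9 higher and 4 lower. All 7 higher genes were called under each of these 3 scalings. Of the 12 lower genes, Arrdc4, Enc1 and Rlbp1 were called under all 3 and 7 under none, and all 19 kept their direction.

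**Figure D2:**
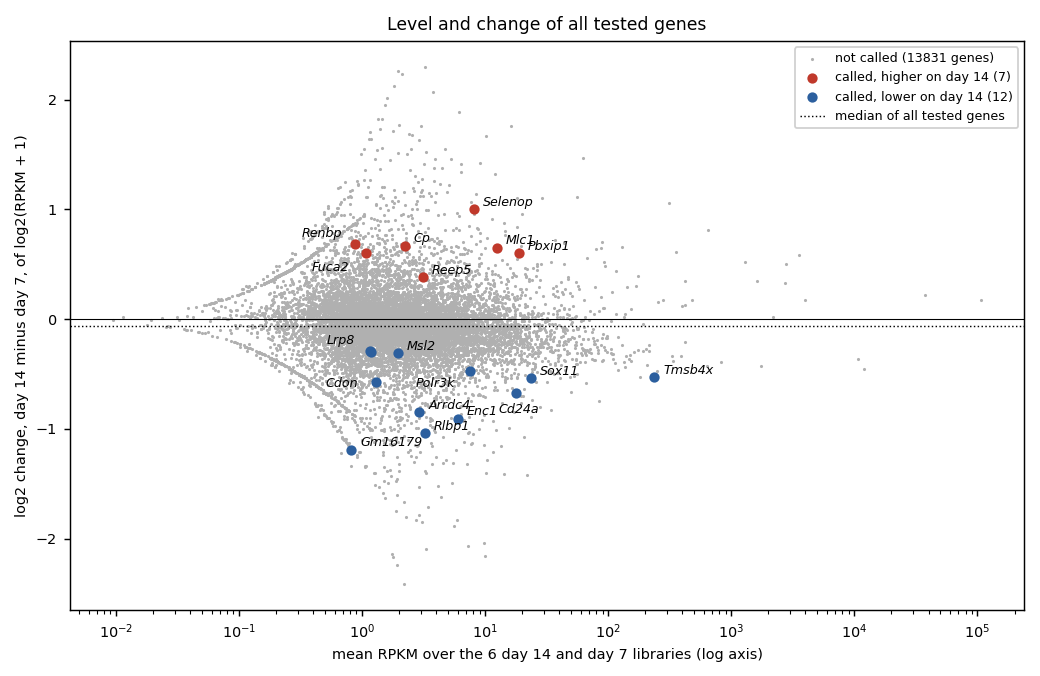
Mean RPKM over the 6 libraries (horizontal log axis) against the log2 change, day 14 minus day 7 (vertical axis), of 13850 tested genes, with the 7 higher genes in red, the 12 lower genes in blue and the others in grey. The called genes lie between 0.38 and 1.0 above 0 and between 0.29 and 1.19 below it, and many grey genes with larger changes were not called.

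The 7 genes higher on day 14 were Selenop, Cp, Mlc1, Pbxip1, Fuca2, Renbp and Reep5. Selenop, Mlc1 and Pbxip1 were picked by a rule that asked for at least 5 RPKM, and the other 4 are named because so few passed, after their values were seen. In bulk RNA, more or fewer cells of a type and more or less RNA per cell cannot be told apart, and this holds for every result here.

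Selenop encodes the secreted selenoprotein that carries selenium between cells (ENSMUSG00000064373.12, chromosome 15, 3268547 to 3280508). It had 14.8, 11.9 and 7.13 RPKM on day 14, against 5.59, 5.24 and 4.06 RPKM on day 7. All day 14 libraries lay above all day 7 libraries, and the means of 11.3 ± 3.88 and 4.96 ± 0.799 (SD, n = 3 each) differ 2.27-fold (log2 change 1.0 ± 0.18 SE, limma adjusted p = 0.0391). Cp encodes ceruloplasmin, the copper ferroxidase with which astrocytes export iron (ENSMUSG00000003617.16, chromosome 3, 19957054 to 20009145). It had 3.50, 2.85 and 2.44 RPKM on day 14, against 1.96, 1.66 and 0.899 RPKM on day 7, with no overlap (log2 change 0.67 ± 0.13, limma adjusted p = 0.0424).

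Mlc1 encodes a membrane protein of astrocyte junctions and end-feet that binds HepaCAM, the protein used to select the cells, and that is mutated in a human leukoencephalopathy (ENSMUSG00000035805.13, chromosome 15, 88955884 to 88979007). It had 18.5, 15.0 and 13.1 RPKM on day 14, against 11.1, 9.35 and 7.99 RPKM on day 7. The groups do not overlap, and the day 14 mean was 1.64-fold higher (log2 change 0.65 ± 0.12, limma adjusted p = 0.0391). Pbxip1 encodes a protein that binds PBX homeodomain factors (ENSMUSG00000042613.9, chromosome 3, 89436706 to 89450952). It had 21.5, 21.7 and 24.8 RPKM on day 14, against 16.8, 15.1 and 12.2 RPKM on day 7 (1.54-fold, log2 change 0.60 ± 0.11, limma adjusted p = 0.042).

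Fuca2, Renbp and Reep5 completed the group. Fuca2, a secreted fucosidase that trims fucose from glycans (ENSMUSG00000019810.15, chromosome 10, 13499540 to 13519035), had 1.80, 1.31 and 1.42 RPKM on day 14, against 0.81, 0.491 and 0.652 RPKM on day 7 (2.32-fold, log2 change 0.60 ± 0.10, limma adjusted p = 0.0348). Renbp, an epimerase of the sialic acid pathway (ENSMUSG00000031387.14, chromosome X, 73922121 to 73930850), had 1.10, 1.54 and 1.32 RPKM on day 14, against 0.436, 0.381 and 0.514 RPKM on day 7. Its means differ 2.98-fold, the widest ratio among the 7, on 240 reads over the day 14 libraries and 67 over the day 7 libraries (limma adjusted p = 0.04). Reep5, which shapes tubules of the endoplasmic reticulum (ENSMUSG00000005873.6, chromosome 18, 34344885 to 34374070), had 3.75, 3.67 and 3.54 RPKM on day 14, against 2.72, 2.60 and 2.45 RPKM on day 7 (1.41-fold, limma adjusted p = 0.0391). None of the 3 overlapped between the days. In the early step Fuca2, Renbp, Reep5 and Pbxip1 differed by between -0.01 and 0.15 in log2 and were not called, whereas Selenop (1.46), Mlc1 (1.01) and Cp (0.85) were called higher on day 7 than on day 2. For none of the 7 was the difference between the late and the early change itself called (limma adjusted p from 0.16 to 0.797).

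**Figure D3:**
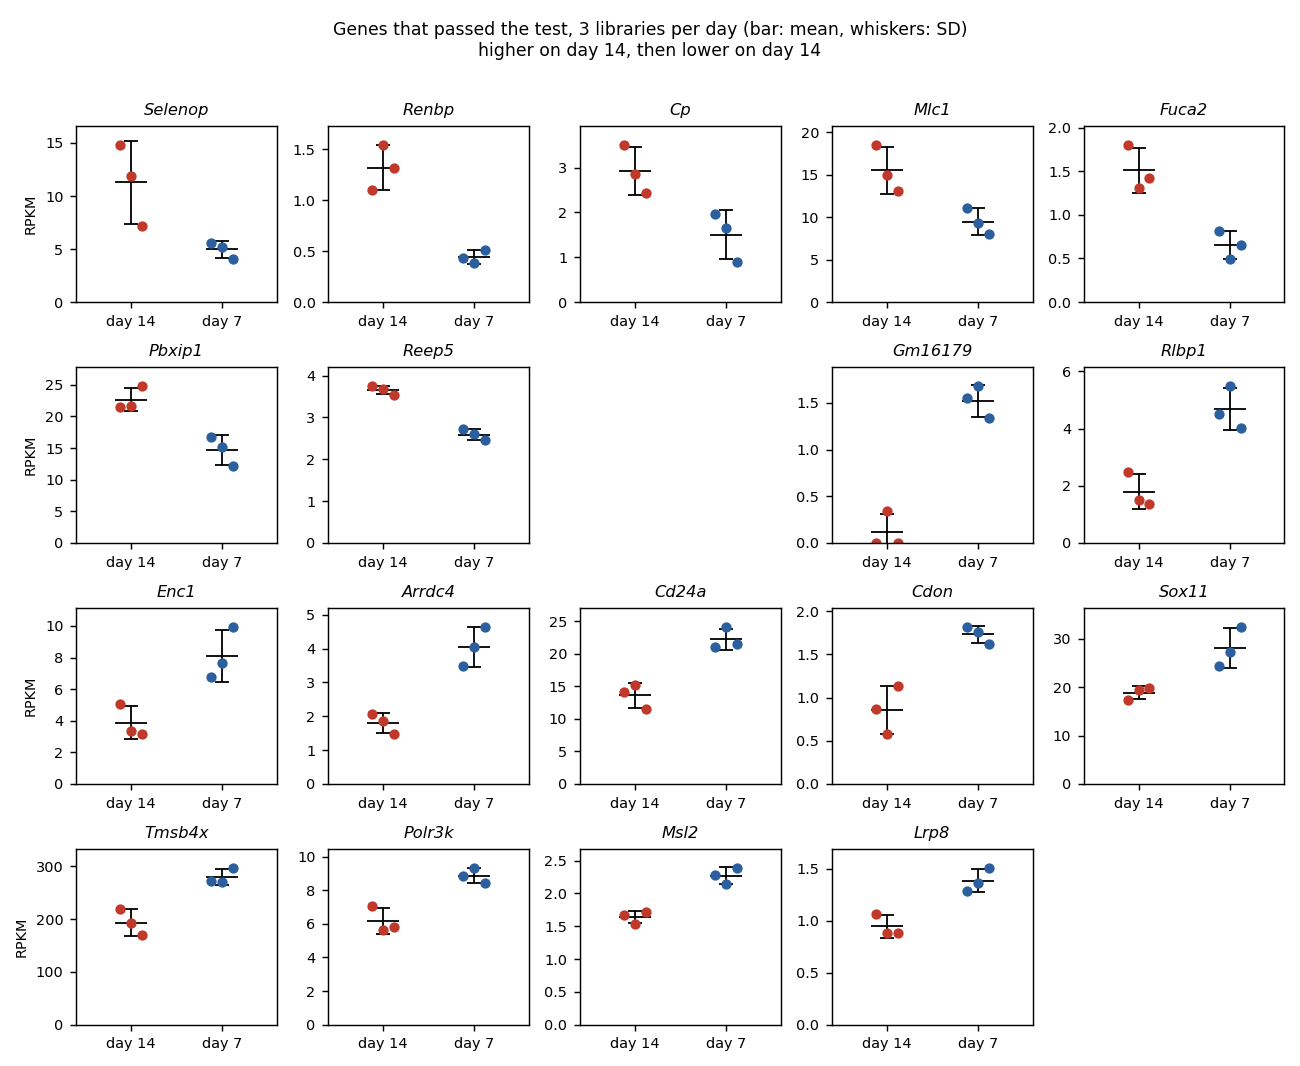
RPKM (vertical axes from 0, a scale per gene) of the called genes described in the text in the 3 day 14 libraries (red, left in each panel) and the 3 day 7 libraries (blue, right), with the mean as a bar and the SD as whiskers. In every panel the 3 red points lie wholly above or wholly below the 3 blue points.

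Of the 12 lower genes, Sox11, Cd24a, Enc1, Tmsb4x and Polr3k met the rule of at least 5 RPKM and Arrdc4 came from a gene list, and the others described are named after their values were seen. Sox11, a transcription factor of immature neural cells (ENSMUSG00000063632.6, chromosome 12, 27334264 to 27342574), had 17.3, 19.4 and 19.8 RPKM on day 14, against 24.3, 27.4 and 32.5 RPKM on day 7 (1.49-fold lower, log2 change -0.54 ± 0.09, limma adjusted p = 0.0391). Cd24a, a surface glycoprotein of immature neural cells (ENSMUSG00000047139.9, chromosome 10, 43578284 to 43584265), had 14.1, 15.2 and 11.5 RPKM on day 14, against 21.0, 24.1 and 21.4 RPKM on day 7 (1.63-fold lower, limma adjusted p = 0.04). Enc1, a kelch protein of the developing nervous system that binds actin (ENSMUSG00000041773.8, chromosome 13, 97241105 to 97253034), had 5.07, 3.36 and 3.18 RPKM on day 14, against 6.75, 7.64 and 9.94 RPKM on day 7. Its day 14 mean was 2.10-fold lower (log2 change -0.91 ± 0.15, limma adjusted p = 0.0348), and it passed 16 of the 23 alternative fits, the most of any of the 19.

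Cdon, a co-receptor for Hedgehog ligands (ENSMUSG00000038119.15, chromosome 9, 35421128 to 35507652), had 0.871, 0.576 and 1.13 RPKM on day 14, against 1.82, 1.76 and 1.62 RPKM on day 7 (2.01-fold lower, limma adjusted p = 0.042). Lrp8, a receptor for reelin and apolipoprotein E (ENSMUSG00000028613.14, chromosome 4, 107802261 to 107876840), had 1.07, 0.884 and 0.884 RPKM on day 14, against 1.29, 1.36 and 1.51 RPKM on day 7 (1.47-fold lower, limma adjusted p = 0.0424). Day 14 and day 7 did not overlap for Sox11, Cd24a, Enc1, Cdon or Lrp8. Cdon (-0.86), Cd24a (-0.87) and Lrp8 (-0.60) had also been called lower in the early step, while Enc1 had been called higher (0.72) and Sox11 was not called (-0.14). Sox11, Cd24a, Cdon and Lrp8 were not called under median-of-ratios scaling, quantile normalization or scaling without mitochondrial genes, where their limma adjusted p ranged from 0.0545 to 0.162.

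Rlbp1 encodes a retinaldehyde-binding protein known from the glia and pigment epithelium of the retina (ENSMUSG00000039194.16, chromosome 7, 79374870 to 79387048), and had 2.49, 1.5 and 1.38 RPKM on day 14, against 4.52, 5.49 and 4.03 RPKM on day 7. The day 14 mean was 2.61-fold lower (log2 change -1.04 ± 0.18, limma adjusted p = 0.0391), after an early change of -0.59 that was also called. Tmsb4x, the thymosin that holds actin monomers (ENSMUSG00000049775.16, chromosome X, 167207093 to 167209315), had 219, 192 and 169 RPKM on day 14, against 272, 270 and 297 RPKM on day 7 (1.44-fold lower, limma adjusted p = 0.042). It was called under none of the 3 other scalings, with limma adjusted p of 0.0818 (median-of-ratios), 0.133 (quantile) and 0.0563 (without mitochondrial genes). It has close copies elsewhere in the genome, which makes its count uncertain.

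A further 2 lower genes act in the nucleus. Polr3k, a subunit of RNA polymerase III (ENSMUSG00000038628.8, chromosome 2, 181864337 to 181870830), had 7.03, 5.64 and 5.80 RPKM on day 14, against 8.82, 9.33 and 8.44 RPKM on day 7 (1.44-fold lower, limma adjusted p = 0.04). Msl2, of the MSL histone acetyltransferase complex (ENSMUSG00000066415.4, chromosome 9, 101074101 to 101104800), had 1.67, 1.54 and 1.71 RPKM on day 14, against 2.28, 2.14 and 2.39 RPKM on day 7. The groups were separate for both, with log2 changes of -0.47 and -0.31 and limma adjusted p of 0.04 for Polr3k and 0.042 for Msl2. Under the 3 other scalings Polr3k was called only without mitochondrial genes (limma adjusted p = 0.0465), and Msl2 under none (from 0.13 to 0.168). The pseudogene Gm16179 was called on 1 read over the day 14 libraries and 10 over the day 7 libraries.

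Arrdc4 had the lowest p of all genes in the late step. It encodes an arrestin-domain protein of the same family as Txnip, and both are known targets of the Mondo factors, which bind DNA when glucose metabolites accumulate in the cell. Arrdc4 (ENSMUSG00000042659.15, chromosome 7, 68736995 to 68749241) had 2.06, 1.85 and 1.47 RPKM on day 14, against 3.47, 4.04 and 4.64 RPKM on day 7. The groups do not overlap, and the day 14 mean was 2.26-fold lower (log2 change -0.85 ± 0.13, unadjusted p = 3.01e-06, limma adjusted p = 0.0348). The change was opposite in sign to the early one of 1.20, and the difference of the steps was -2.05 ± 0.22 (limma adjusted p = 0.000413).

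Txnip was not called in the late step with all libraries. It had 20.8, 6.81 and 5.64 RPKM on day 14, against 17.4, 16.7 and 26.1 RPKM on day 7, with day 14 replicate 1 inside the range of day 7 (log2 change -0.99 ± 0.33, limma adjusted p = 0.267). Without day 14 replicate 1, a library that stood apart, it was called lower (limma adjusted p = 0.015). It was not called without day 7 replicate 3 or without both libraries that stood apart. Its early change was 2.27, and the difference of the steps was -3.26 ± 0.56 (limma adjusted p = 0.0139).

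The promoters of Arrdc4 and Txnip are printed because both genes were called for a negative step difference and because the E-box of the carbohydrate response element known for Mondo factors can be read in them. Each sequence runs from 250 bases before to 50 bases after the start of the gene, 5′ to 3′ on the gene's strand (RefSeq, GRCm38.p6), with matches to CACGNG on either strand in capitals. Arrdc4 lies at chr7:68749189-68749488 on the minus strand and Txnip at chr3:96557707-96558006 on the plus strand.
Arrdc4: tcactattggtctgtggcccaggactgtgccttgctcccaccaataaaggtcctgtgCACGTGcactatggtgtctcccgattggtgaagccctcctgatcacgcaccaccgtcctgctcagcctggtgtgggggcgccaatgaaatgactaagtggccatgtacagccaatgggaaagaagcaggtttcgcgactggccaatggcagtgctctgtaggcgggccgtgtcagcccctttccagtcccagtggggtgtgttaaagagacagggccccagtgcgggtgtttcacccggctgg
Txnip: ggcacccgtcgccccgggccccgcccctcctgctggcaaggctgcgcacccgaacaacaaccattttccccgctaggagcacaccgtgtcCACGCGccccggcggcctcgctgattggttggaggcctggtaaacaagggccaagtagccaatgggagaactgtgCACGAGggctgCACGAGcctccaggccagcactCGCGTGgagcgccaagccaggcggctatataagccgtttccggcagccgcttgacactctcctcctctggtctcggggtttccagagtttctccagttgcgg
The Arrdc4 window holds 1 match, CACGTG, whose first base is 193 bases before the start. The Txnip window holds 4, at 160, 85, 74 and 52 bases before the start, and those at 85 and 74 are separated by 5 bases. Of 32851 promoters of the same length, 27.5% hold at least 1 match on either strand, and 16 (0.0487%) hold a pair of CACGNG with that spacing. A match is a description of the letters and not a binding site.

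Voom, which weighs reads, called 28 genes beyond the 19, named here after their values were seen. Cryab, a small heat shock protein, had 21.3, 16.9 and 14.7 RPKM on day 14, against 8.12, 5.68 and 5.58 RPKM on day 7 (voom log2 change 1.40 ± 0.26, voom adjusted p = 0.014, limma adjusted p = 0.0605). Tril, a partner of Toll-like receptors abundant in glia, had 91.5, 80.6 and 69.9 RPKM on day 14, against 58.8, 58.3 and 46.2 RPKM on day 7 (voom adjusted p = 0.0114, limma adjusted p = 0.0569). Adora1, the adenosine A1 receptor, had 1.54, 1.41 and 1.6 RPKM on day 14, against 0.786, 0.983 and 0.895 RPKM on day 7 (voom adjusted p = 0.0162, limma adjusted p = 0.0577). All day 14 libraries lay above all day 7 libraries for these 3, and each was also called with median-of-ratios scaling.

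Other genes that voom called were also higher on day 14. Dag1, the dystroglycan that anchors end-feet to laminin, had 12.1, 14.6 and 12.6 RPKM on day 14, against 11.2, 9.89 and 8.93 RPKM on day 7 (voom adjusted p = 0.0455, limma adjusted p = 0.119). Tmem47, a membrane protein of cell junctions, had 14.0, 9.74 and 10.2 RPKM on day 14, against 7.43, 6.43 and 7.45 RPKM on day 7 (voom adjusted p = 0.019). Wnt5a, a Wnt ligand, had 12, 10.0 and 12.8 RPKM on day 14, against 8.02, 7.87 and 3.83 RPKM on day 7 (voom adjusted p = 0.0455). The groups do not overlap for any of them. Sdc2, a heparan sulfate proteoglycan, Spon1, a secreted matrix protein, Itih5, a hyaluronan-binding protein, and Mxra8, an adhesion protein, were higher by 0.73, 0.66, 0.89 and 1.01 in voom log2 change. The clock repressor Bhlhe41 and the glutathione transferase Gstt1 were higher by 0.93 and 1.06.

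Voom called 13 genes lower beyond the 12. Cdk6, a kinase of the G1 phase, had 0.952, 0.807 and 0.732 RPKM on day 14, against 1.32, 1.5 and 1.04 RPKM on day 7 (voom log2 change -0.63 ± 0.12, voom adjusted p = 0.014, limma adjusted p = 0.12). Pou3f3, a POU factor of neural precursors, had 20.6, 22.2 and 21.8 RPKM on day 14, against 25.8, 28.5 and 34.5 RPKM on day 7 (voom adjusted p = 0.0455). Dpysl3, a collapsin response mediator of growing neurites, had 1.66, 1.42 and 1.37 RPKM on day 14, against 1.88, 2.13 and 2.60 RPKM on day 7 (voom adjusted p = 0.0208). Day 14 lay below day 7 without overlap for all 3. The methylcytosine dioxygenase Tet1, the growth receptor adaptor Grb10, the ETS factor Etv1, the kinesin Kif21b and the Wnt antagonist Sfrp1 had voom log2 changes of -0.52, -1.25, -0.61, -0.54 and -0.71.

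Gene lists were read by counts and medians. They were drawn up from general knowledge, and 46 of them had at least 5 tested members. Each count below stands beside the shares over all tested genes given above (0.0505% called higher, 0.0866% called lower, 3.06% and 7.65% at an unadjusted p below 0.05), and each median beside the -0.06 of all tested genes. Of all tested genes 5018 of 13850 had a positive change, which is the background for each count of positive members. Under at least 1 of the 3 other scalings 4 lists had a median of the opposite sign, and without day 14 replicate 1 and day 7 replicate 3 there were 8. Medians that round to 0.00, those of the Wnt and IGF lists, were counted as having no sign. The pericyte list turned from 0.05 to -0.03 under quantile normalization, and the others are named where they come up. Leaving out 1 of these libraries moved many of the medians, and the single values are given where they differ most.

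Of 30 tested astrocyte markers 1 was called, Mlc1, higher on day 14. At an unadjusted p below 0.05 there were 10 higher and 3 lower, and 6 had all day 14 libraries above all day 7 libraries while none had them all below. The median log2 change was 0.26, and 0.15 without both libraries that stood apart. Without day 14 replicate 1 alone it was 0.07, with 16 of 30 positive. Gja1, the main gap junction gene of astrocytes, had 12.8, 5.69 and 5.05 RPKM on day 14, against 4.44, 3.77 and 2.83 RPKM on day 7, without overlap (log2 change 0.83 ± 0.22, limma adjusted p = 0.163). Apoe, the main lipoprotein gene of astrocytes, had 622, 448 and 232 RPKM on day 14, against 196, 158 and 230 RPKM on day 7 (log2 change 1.06 ± 0.30, limma adjusted p = 0.194). Its lowest day 14 library lay 2 RPKM units above its highest day 7 library.

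Aqp4, the water channel of end-feet, had 28.0, 15.0 and 13.8 RPKM on day 14, against 12.7, 7.40 and 8.70 RPKM on day 7 (log2 change 0.88 ± 0.27, limma adjusted p = 0.242). Gfap had 9.73, 2.30 and 2.59 RPKM on day 14, against 2.23, 0.674 and 4.17 RPKM on day 7, with groups that overlap and a 95% interval of the log2 change from -0.07 to 1.53. Slc1a2, a glutamate transporter that appears late in development, had 7.91, 5.21 and 3.75 RPKM on day 14, against 3.84, 3.08 and 4.53 RPKM on day 7 (95% interval 0.02 to 0.82, limma adjusted p = 0.441). The other transporter, Slc1a3, had 19.8, 17.4 and 15.4 RPKM on day 14, against 18.5, 16.4 and 22.5 RPKM on day 7 (95% interval -0.40 to 0.17), and Aldh1l1 had an interval of -0.44 to 0.15. Mfge8, an opsonin secreted by astrocytes, had 15.5, 11.1 and 8.02 RPKM on day 14, against 15.1, 16.7 and 23.6 RPKM on day 7 (log2 change -0.65 ± 0.18, limma adjusted p = 0.194). In Aqp4, Gfap and Slc1a2 the highest day 14 library was replicate 1.

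Of 16 tested genes for water, potassium and gap junctions, 1 was called higher (Mlc1), 6 had an unadjusted p below 0.05, all higher, and the median was 0.19 (0.12 without both libraries). Among 18 astrocyte receptors coupled to G proteins none was called by limma, 8 were higher and 2 lower at an unadjusted p below 0.05, voom called 1 (Adora1), and the median was 0.27 (0.13 without both libraries). P2ry1, a receptor for ADP that triggers calcium signals, had 8.68, 7.60 and 9.32 RPKM on day 14, against 6.5, 6.09 and 5.68 RPKM on day 7, without overlap (limma adjusted p = 0.145). F2r, the thrombin receptor, had 17.8, 17.0 and 14.4 RPKM on day 14, against 20.8, 20 and 19 RPKM on day 7 (limma adjusted p = 0.171).

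Of 16 genes of glutamate and GABA handling limma called none, 4 were higher and 3 lower at an unadjusted p below 0.05, and voom called none (median 0.13, and 0.03 without both libraries). Abat, which breaks down GABA, had 2.31, 1.52 and 1.26 RPKM on day 14, against 1.09, 0.889 and 0.611 RPKM on day 7, without overlap (limma adjusted p = 0.12). Gria2, an AMPA receptor subunit, had 2.69, 3.09 and 2.79 RPKM on day 14, against 3.51, 3.69 and 4.30 RPKM on day 7, with the day 14 libraries below all day 7 libraries (limma adjusted p = 0.249). Its early change was 0.72, and the difference of the steps was called (-1.05, limma adjusted p = 0.00993). Nlgn3, a synaptic adhesion gene from the list of synapse regulators, had the same order, with 3.58, 3.46 and 2.66 RPKM on day 14, 3.84, 4.37 and 4.19 RPKM on day 7 and a step difference of -1.28 (limma adjusted p = 0.000867).

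Of 21 reactive astrocyte genes 1 was called, Cp, higher, and the median of 0.06 turned to -0.02 under quantile normalization. It was 0.12 without day 7 replicate 3 and 0.01 without day 14 replicate 1. The list is named for astrocytes in injured tissue, and Cp is also a gene of iron export. Of 21 radial glia and immature astrocyte genes 2 were called lower, Cd24a and Sox11, and none higher, with a median of -0.11 (-0.20 without both libraries). Fabp7, the fatty acid binding protein of radial glia, had 594, 799 and 735 RPKM on day 14, against 821, 1029 and 935 RPKM on day 7, without overlap (log2 change -0.39 ± 0.14, limma adjusted p = 0.306). Igfbp5, from the same list, had 7.07, 5.33 and 5.11 RPKM on day 14, against 3.64, 4.12 and 3.53 RPKM on day 7 (limma adjusted p = 0.255).

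Of 29 gliogenic and astrocyte transcription factors limma called none, 6 were lower and none higher at an unadjusted p below 0.05, voom called 1 lower (Etv1), and the median was -0.13 (-0.07 without both libraries and -0.03 without day 7 replicate 3 alone). Of 15 targets of BMP, Notch and TGF-beta limma and voom called none, 1 was higher and 4 lower at an unadjusted p below 0.05, and the median was -0.14 (-0.20 without both libraries and -0.30 without day 14 replicate 1 alone). Hes5, a Notch target, had 7.13, 4.55 and 1.83 RPKM on day 14, against 6.69, 9.20 and 16.5 RPKM on day 7 (log2 change -1.14 ± 0.42, limma adjusted p = 0.337). Hes1, another Notch target, had 3.07, 3.42 and 3.15 RPKM on day 14, against 4.19, 4.51 and 4.02 RPKM on day 7, without overlap (limma adjusted p = 0.37). Dll3, a Notch ligand, had 0.878, 0.876 and 0.456 RPKM on day 14, against 1.29, 1.17 and 2.12 RPKM on day 7, also without overlap (limma adjusted p = 0.194).

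For cell division no list had a called gene. Of 52 mitosis genes none was called by limma or voom and none had an unadjusted p below 0.05. The summed level of all 54 members of the list, tested or not, was 179, 189 and 266 RPKM on day 14, against 259, 276 and 52.0 RPKM on day 7. The sums overlap, and day 7 replicate 3 had the lowest of the 6. The median was 0.22 with all libraries, with 49 of 52 members positive, -0.27 with 2 positive without day 7 replicate 3, and -0.19 without both libraries that stood apart. Mki67 had 24.0, 21.8 and 36.6 RPKM on day 14, against 35.0, 37.6 and 4.41 RPKM on day 7 (95% interval of the log2 change -0.68 to 1.69).

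Of 45 DNA replication genes none was called by limma or voom, 3 were lower at an unadjusted p below 0.05, and the median was -0.16 (-0.23 without both libraries). It was -0.39 without day 7 replicate 3 alone and -0.01, with 20 of 45 positive, without day 14 replicate 1 alone. E2f1, which drives genes of S phase, had 0.257, 0.786 and 0.866 RPKM on day 14, against 1.25, 1.31 and 0.975 RPKM on day 7, without overlap (limma adjusted p = 0.281). Of 18 G1 cyclins and inhibitors limma called none, 5 were lower at an unadjusted p below 0.05, voom called 1 lower (Cdk6), and the median was -0.20 (-0.11 without both libraries and -0.06 without day 14 replicate 1 alone). Cdkn1c, an inhibitor of cyclin-dependent kinases, had 3.20, 2.10 and 1.28 RPKM on day 14, against 4.59, 4.99 and 3.31 RPKM on day 7 (log2 change -0.76 ± 0.20, limma adjusted p = 0.171). Its early change was 1.44 and the step difference was called (-2.20, limma adjusted p = 0.00901).

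Ccnd1 had 14.1, 37.4 and 40.5 RPKM on day 14, against 34.3, 33.1 and 30.5 RPKM on day 7, with replicate 1 of day 14 below and the other day 14 libraries above the day 7 range (95% interval -0.78 to 0.35). Cdkn1a, an inhibitor induced by P53, had 7.56, 22.6 and 16.8 RPKM on day 14, against 17.6, 12.3 and 12 RPKM on day 7 (95% interval -0.59 to 0.69). Of 26 P53 targets limma and voom called none, 1 was higher at an unadjusted p below 0.05, and the median was 0.03 (-0.03 without day 7 replicate 3).

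The EGF receptor family and its ligands had 6 tested members, and limma and voom called none, also none at an unadjusted p below 0.05. Egfr had 8.82, 6.59 and 6.32 RPKM on day 14, against 7.51, 7.56 and 4.88 RPKM on day 7 (95% interval of the log2 change -0.22 to 0.45). Hbegf, a ligand of this receptor, had 2.79, 4.16 and 4.8 RPKM on day 14, against 2.29, 2.58 and 7.45 RPKM on day 7 (95% interval -0.93 to 1.05). The family's median of -0.01 was above 0 under the 3 other scalings.

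Of 23 ERK feedback and output genes limma called none and voom 1 lower (Etv1), and 4 were lower at an unadjusted p below 0.05. Their median of -0.14 was 0.01 without both libraries that stood apart. Of 20 immediate early genes limma and voom called none and 3 were lower at an unadjusted p below 0.05. Their median of -0.07 was 0.12 without both libraries. Egr1, induced within minutes by growth factors or handling, had 38.1, 99.4 and 54.8 RPKM on day 14, against 72.7, 108 and 129 RPKM on day 7, and the groups overlap. Of 17 other growth factor receptor kinases limma and voom called none, with 3 higher and 3 lower at an unadjusted p below 0.05 (median 0.03, and -0.05 without day 14 replicate 1). Ntrk2, the TrkB receptor, had 3.93, 2.32 and 2.04 RPKM on day 14, against 1.96, 1.64 and 2.04 RPKM on day 7 (limma adjusted p = 0.297), and Insr, the insulin receptor, had 1.20, 1.14 and 1.27 RPKM on day 14, against 1.34, 1.51 and 1.77 RPKM on day 7 (limma adjusted p = 0.163).

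Among metabolic lists, 1 of 26 genes of glycolysis, glycogen and lactate was called, Arrdc4, lower, and the median was 0.03 (-0.01 without day 14 replicate 1). Of 30 genes of cholesterol synthesis and sterol sensing limma and voom called none, and 3 were lower at an unadjusted p below 0.05 (median -0.12, -0.19 without both libraries, -0.28 without day 7 replicate 3 alone and -0.04 without day 14 replicate 1 alone). Mvk, which makes mevalonate phosphate, had 0.944, 0.917 and 0.83 RPKM on day 14, against 1.5, 1.43 and 1.24 RPKM on day 7, without overlap (limma adjusted p = 0.242). Of 26 genes of fatty acid synthesis and oxidation limma and voom called none, 5 were higher and 2 lower at an unadjusted p below 0.05, and the median of 0.07 was -0.09 without both libraries. Hadha, of mitochondrial fatty acid oxidation, had 7.39, 6.80 and 6.08 RPKM on day 14, against 5.43, 5.21 and 5.46 RPKM on day 7, without overlap (limma adjusted p = 0.151), and was called higher with median-of-ratios scaling.

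Of 14 genes of apolipoproteins and lipid efflux limma and voom called none, 4 were higher at an unadjusted p below 0.05, and the median was 0.03 (-0.01 without day 14 replicate 1 and 0.18 without day 7 replicate 3). Abca1, which loads cholesterol onto lipoproteins, had 9.87, 6.42 and 5.62 RPKM on day 14, against 5.33, 4.61 and 4.06 RPKM on day 7, without overlap (limma adjusted p = 0.194). Clu, the secreted chaperone clusterin, had 18.3, 8.06 and 8.69 RPKM on day 14, against 4.39, 1.78 and 9.62 RPKM on day 7 (log2 change 1.14 ± 0.37, limma adjusted p = 0.267). In Abca1 and Clu the highest day 14 library was again replicate 1.

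The 8 tested protein genes of the mitochondrial genome all had positive changes, with a median of 0.51 (0.58 without both libraries), and limma and voom called none. At an unadjusted p below 0.05 there were 5 higher. The share of mitochondrial ribosomal RNA given above was also higher on day 14, and its part in these values was not tested. Without the mitochondrial genes in the scaling the median was 0.57, and under quantile normalization 7 of 8 were positive with a median of 0.29. mt-Cytb, of respiratory complex III, had 3938, 4052 and 4847 RPKM on day 14, against 3169, 2833 and 2597 RPKM on day 7, without overlap (log2 change 0.58 ± 0.15, limma adjusted p = 0.151). By contrast the 52 nuclear genes of oxidative phosphorylation had a median of 0.01, with 1 at an unadjusted p below 0.05 and none called by limma or voom.

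Ribosomal protein genes had a median of -0.28 over 48 tested members, and -0.25 without both libraries. No member was positive, 8 were lower at an unadjusted p below 0.05, 8 had all day 14 libraries below all day 7 libraries, and limma and voom called none. With median-of-ratios scaling the median was -0.18 and 3 members were positive. Rpl4 had 178, 192 and 175 RPKM on day 14, against 228, 237 and 195 RPKM on day 7 (log2 change -0.27 ± 0.09, limma adjusted p = 0.292). Ribosomal proteins have many pseudogene copies, which makes their counts uncertain.

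Autophagy and lysosome genes had 29 of 31 positive changes and a median of 0.16 (0.13 without both libraries), with 8 higher at an unadjusted p below 0.05 and none called by limma or voom. Lamp2, a lysosomal membrane protein, had 7.73, 6.43 and 5.32 RPKM on day 14, against 5.05, 4.79 and 4.47 RPKM on day 7, without overlap (limma adjusted p = 0.209). Psap, the precursor of the saposins that activate lipid breakdown in the lysosome, had 11.2, 9.52 and 7.79 RPKM on day 14, against 7.30, 7.17 and 6.28 RPKM on day 7, also without overlap (limma adjusted p = 0.25). Of 34 metallothionein, antioxidant and chaperone genes 1 was called, Selenop, higher, and 6 were higher at an unadjusted p below 0.05 (median 0.06, and 0.15 without both libraries). Mt2, a metallothionein, had 120, 65.4 and 49.0 RPKM on day 14, against 40.6, 25.8 and 35.3 RPKM on day 7, without overlap (limma adjusted p = 0.352).

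**Figure D4:**
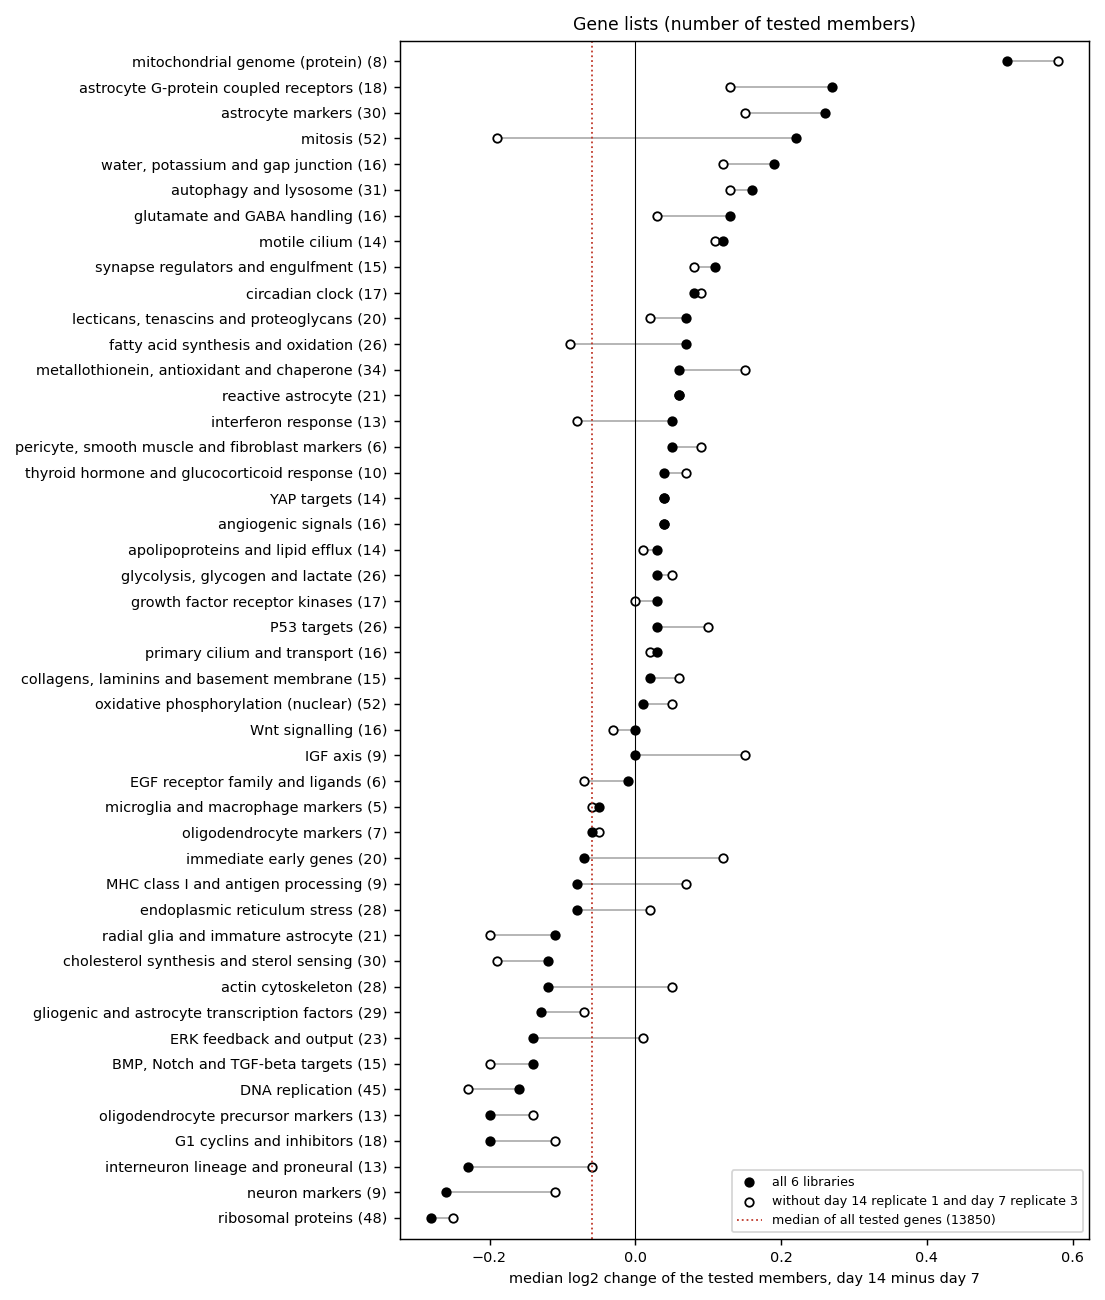
Median log2 change, day 14 minus day 7 (horizontal axis), of 46 gene lists (vertical axis, number of tested members in brackets) with all libraries (filled) and without day 14 replicate 1 and day 7 replicate 3 (open); the dotted line is the -0.06 of all tested genes. On this scaling mitochondrial genome genes lie at 0.51 and ribosomal proteins at -0.28 (0.29 and -0.19 under quantile normalization), and mitosis genes cross 0, with 0.22 filled and -0.19 open.

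Of 28 actin cytoskeleton genes 1 was called, Tmsb4x, lower, 5 were lower at an unadjusted p below 0.05, and the median of -0.12 was 0.05 without both libraries. Tagln2, a transgelin that binds actin, had 3.86, 8.37 and 4.78 RPKM on day 14, against 10.6, 10.2 and 21.2 RPKM on day 7, without overlap (log2 change -1.15 ± 0.27, limma adjusted p = 0.126). Of 14 YAP targets limma and voom called none, 1 was higher and 1 lower at an unadjusted p below 0.05, and the median was 0.04. Ctgf, a matricellular gene of that list, had 7.02, 4.46 and 7.08 RPKM on day 14, against 1.6, 0.835 and 2.54 RPKM on day 7. The groups were separate and the log2 change was 1.46 ± 0.35 (limma adjusted p = 0.139).

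In the matrix, 20 genes for lecticans, tenascins and proteoglycans had no limma call, 1 higher and 3 lower at an unadjusted p below 0.05, and voom called 1 higher (Sdc2) and 1 lower (Chst3), with a median of 0.07. Vcan, a lectican of immature brain matrix, had 0.787, 0.641 and 0.608 RPKM on day 14, against 0.985, 1.10 and 0.883 RPKM on day 7, without overlap (limma adjusted p = 0.244). Of 15 collagens, laminins and other basement membrane genes limma and voom called none, with 3 higher and 1 lower at an unadjusted p below 0.05 (median 0.02). Lamb2, a laminin chain of the vascular basement membrane, had 7.11, 6.33 and 5.02 RPKM on day 14, against 4.97, 4.47 and 3.63 RPKM on day 7, without overlap (limma adjusted p = 0.263).

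Smaller signalling lists held single genes of note. Of 16 Wnt genes voom called Wnt5a higher and Sfrp1 lower, limma called none and 1 in each direction had an unadjusted p below 0.05. Of 17 clock genes limma called none and voom 1, Bhlhe41, and 5 were higher and 1 lower at an unadjusted p below 0.05 (median 0.08, and 0.16 without day 7 replicate 3). Nr1d2, a repressor of the clock, had 1.42, 0.629 and 0.881 RPKM on day 14, against 0.546, 0.492 and 0.519 RPKM on day 7, without overlap (limma adjusted p = 0.244), and the sources used here do not give the time of day at harvest. Of 10 thyroid hormone and glucocorticoid genes limma and voom called none, with 1 higher and 2 lower at an unadjusted p below 0.05. Dio2, which activates thyroid hormone, had 2.37, 1.53 and 4.14 RPKM on day 14, against 5.30, 3.82 and 6.12 RPKM on day 7, and the groups overlap (limma adjusted p = 0.273).

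Of 9 genes of the IGF axis limma and voom called none, with 2 in each direction at an unadjusted p below 0.05. Igfbp4, an IGF binding protein, had 10.4, 24.3 and 20.5 RPKM on day 14, against 13.4, 13.8 and 4.57 RPKM on day 7, and the imprinted noncoding RNA H19 had 0.343, 0.679 and 0.885 RPKM on day 14, against 0.97, 1.51 and 6.01 RPKM on day 7. In both, day 7 replicate 3 was the library farthest from the others of its day. Of 15 synapse regulators and engulfment genes limma and voom called none, with 3 higher and 1 lower at an unadjusted p below 0.05 (median 0.11, and 0.05 without day 14 replicate 1). Thbs1, a thrombospondin that promotes synapses, had 1.61, 1.21 and 2.18 RPKM on day 14, against 0.74, 0.436 and 1.01 RPKM on day 7, without overlap (limma adjusted p = 0.306). Of 16 angiogenic signals limma and voom called none, with 4 higher and 1 lower at an unadjusted p below 0.05 (median 0.04).

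Of 62 motile cilium genes 14 were tested. Limma and voom called none, 4 were higher at an unadjusted p below 0.05 and 13 of 14 were positive, with a median of 0.12. The tested members are those with at least 1 RPKM in any pair of the 25 libraries. Foxj1, the master factor of motile cilia, had 5.89, 4.62 and 5.56 RPKM on day 14, against 3.44, 2.88 and 3.56 RPKM on day 7, without overlap (log2 change 0.56 ± 0.20, limma adjusted p = 0.299). Of 16 primary cilium genes limma and voom called none, also none at an unadjusted p below 0.05 (median 0.03). Of 28 endoplasmic reticulum stress genes limma and voom called none, with 1 in each direction at an unadjusted p below 0.05, and the median of -0.08 was 0.02 without both libraries. The 13 interferon and 9 MHC class I genes had no call by limma or voom, with 1 interferon gene higher and 1 MHC gene in each direction at an unadjusted p below 0.05. Their medians of 0.05 and -0.08 were -0.08 and 0.07 without both libraries, and the MHC median was also above 0 under median-of-ratios scaling and quantile normalization.

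Markers of other cell types are given as sums per library, which depend on gene span and are read only between the days. For microglia, 6 markers summed to at most 0.0926 RPKM in a day 14 library and 0.149 RPKM in a day 7 library, and Tmem119 and C1qa were at 0 in all 6. For endothelial cells, 4 markers summed to at most 0.00649 and 0.359 RPKM, with Cdh5 at 0 in all 6. The erythrocyte genes Hba-a1 and Hbb-bs were at 0 in all 6 libraries. For pericytes and fibroblasts, 6 markers summed to 3.72 to 8.5 RPKM on day 14 and 3.41 to 12.5 RPKM on day 7, with Vtn and Dcn at 0 in all 6. Most of this sum was Acta2, with 3.53, 8.35 and 6.66 RPKM on day 14 and 3.86, 3.33 and 12.3 RPKM on day 7. The 5 other markers were below 1 RPKM in all 6 libraries. For neurons, 6 markers summed to 4.34 to 5.03 RPKM on day 14 and 4.34 to 5.51 RPKM on day 7. Most of this sum was Map2, with 4.5, 3.67 and 4.15 RPKM on day 14 and 3.93, 4.01 and 3.49 RPKM on day 7. Of the 6 neuron markers 4 were below 1 RPKM in all 6 libraries.

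Olig1, a factor of the oligodendrocyte lineage, had 304, 274 and 231 RPKM on day 14, against 264, 273 and 192 RPKM on day 7, and it is also active in glial precursors that form astrocytes. Sox10, which marks the oligodendrocyte lineage more narrowly, had 1.38, 1.26 and 0.48 RPKM on day 14, against 1.77, 2.46 and 4.61 RPKM on day 7, without overlap (log2 change -0.92 ± 0.25, limma adjusted p = 0.191). Limma and voom called none of 13 tested oligodendrocyte precursor, 13 interneuron lineage and proneural, and 9 neuron genes, and 4, 2 and 3 of them were lower at an unadjusted p below 0.05. Their medians were -0.20, -0.23 and -0.26 (-0.14, -0.06 and -0.11 without both libraries). They were -0.20, -0.03 and -0.05 without day 7 replicate 3 alone, and -0.32, -0.38 and -0.37 without day 14 replicate 1 alone. Insm1, a factor of neuronal precursors, had 0.917, 0.327 and 1.23 RPKM on day 14, against 1.49, 1.81 and 3.38 RPKM on day 7, without overlap (limma adjusted p = 0.209). Sox11, Cd24a, Enc1 and Dpysl3 are expressed by neuronal precursors as well as by immature glia, and the part of such cells in their lower levels was not tested.

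The late step differed from the early step for more genes than it moved on its own. The difference of the log2 changes, late minus early, was called for 76 genes (0.549%), 31 positive (0.224%) and 45 negative (0.325%). From 21 to 217 genes were called when single libraries of days 2, 7 and 14 were left out. The 6 genes of each sign with the largest difference were taken from the calls whose highest day averaged 5 RPKM or more. The rule also asked that the day 7 libraries not overlap with those of either day 2 or day 14, so some separation was selected for. Predicted genes, pseudogenes and small RNAs were left out. Values below run over days 2, 7 and 14, as means ± SD of 3 libraries.

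The 6 positive genes had all been called lower on day 7 than on day 2, and none was called in the late step. For 5 of them the late change lay between -0.22 and 0.07. F2rl2, a thrombin receptor, had 7.58 ± 1.76, 0.675 ± 0.0716 and 0.790 ± 0.397 RPKM (difference 2.41 ± 0.29, limma adjusted p = 0.000867). Thbd, the thrombin-binding thrombomodulin, had 5.30 ± 1.48, 0.293 ± 0.165 and 0.174 ± 0.0696 RPKM (limma adjusted p = 0.00196). Lgals1, a galectin of proliferating and reactive cells, had 81.1 ± 30.8, 15.0 ± 3.38 and 12.6 ± 1.84 RPKM (limma adjusted p = 0.0393). The tubulin gene Tubb4b (difference 1.02 ± 0.22) and the proteasome gene Psmd1 (0.69 ± 0.14) followed the same order. Mxra8 had 10.0 ± 3.15, 5.26 ± 1.48 and 11 ± 1.79 RPKM (difference 1.75 ± 0.35, limma adjusted p = 0.0303), and its late change of 0.96 had a limma adjusted p of 0.0683.

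The 6 negative genes had been called higher on day 7 than on day 2. Txnip, with the values given above, Hes5, the noncoding RNA Miat and the SoxC factor Sox4 had lower means on day 14 than on day 7, whereas Ttyh1 and Lrrn1 stood near their day 7 level. Hes5 had 1.43 ± 0.723, 10.8 ± 5.11 and 4.50 ± 2.65 RPKM (difference -3.39 ± 0.73, limma adjusted p = 0.0438). Sox4 had 5.14 ± 0.338, 12.7 ± 2.75 and 8.53 ± 2.08 RPKM (-1.67 ± 0.33, limma adjusted p = 0.0288). Miat had 1.57 ± 0.454, 6.17 ± 1.32 and 4.15 ± 1.97 RPKM (-2.01 ± 0.34, limma adjusted p = 0.0107). Ttyh1, an anion channel of neural cells, had 3.14 ± 0.58, 14.4 ± 2.13 and 16.7 ± 8.58 RPKM (-1.80 ± 0.37, limma adjusted p = 0.0354). Of the 19 genes called in the late step, the step difference was called for 4, namely Arrdc4, Enc1 (-1.63 ± 0.25, limma adjusted p = 0.00684), Polr3k (-0.67 ± 0.14, limma adjusted p = 0.0438) and Gm16179, which rests on few reads.

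**Figure D5:**
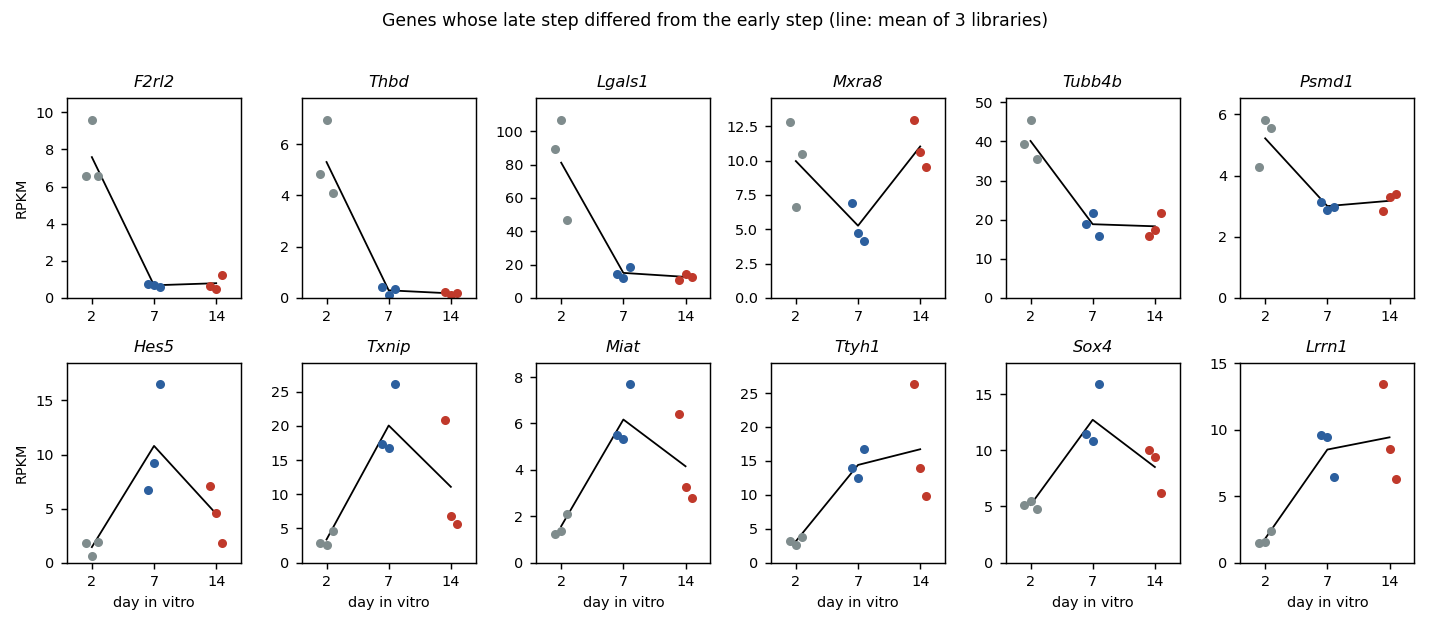
RPKM (vertical axes from 0, a scale per gene) over days 2, 7 and 14 in vitro (horizontal axis) for 6 genes of each sign. They have the largest called difference between the late and the early change among the genes that met the rule in the text. Points are libraries and lines join the means of 3. In the top panels, Mxra8 alone returns on day 14 (11 RPKM against 5.26 RPKM on day 7), and in the bottom panels day 14 replicate 1 is the highest red point.

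Of 531 tested small RNAs limma called none in the late step, voom called none, and 31 had an unadjusted p below 0.05. The 3 with the lowest p were Mir7008, Mir378c and mt-Tc (limma adjusted p = 0.126, 0.148 and 0.193). Mir7008 was at 0 in all day 7 libraries and Mir378c in all day 14 libraries, and their levels elsewhere, up to 5.33 RPKM on day 14 and up to 4.71 RPKM on day 7, rest on few reads.

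Reads of a gene and of a neighbour that overlaps it cannot be told apart without a strand setting, and the sources used here name none. Of the 19 called genes this holds for Selenop, Cp, Lrp8, Msl2, Cdon and Gm16179. Of the genes that voom called beyond the 19 and that are named above it holds for Adora1, Bhlhe41, Cdk6, Chst3, Cryab, Mxra8, Pou3f3, Tet1, Tmem47, Tril and Wnt5a. Of the genes named for the step difference it holds for F2rl2, Gria2, Hes5, Miat, Mxra8, Nlgn3, Psmd1, Sox4, Ttyh1, Tubb4b, Txnip and Cdkn1c. Of the others with values above it holds for Aldh1l1, Aqp4, Ccnd1, Cdkn1a, Dio2, Dlx1, Egfr, Gfap, H19, Hadha, Insr, Mir378c, Mir7008, Mki67, Mt2, Ntrk2, P2ry1, Rpl4, Slc1a2, Slc1a3, Thbs1 and Vcan.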

How the data were processed

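Per the labels, the kits were miRNeasy for RNA, Ovation RNA-seq V2 for cDNA and NEBNext Ultra for libraries. STAR, HTSeq, edgeR, limma and GRCm38 are named, without roles or versions, per the submitters' processing notes. The table of the authors holds RPKM values as deposited, 1 column per library. Multiplied by the whole gene span of GENCODE M21 (53643 of 54429 entries matched), they sum to 999076 to 1002555 per library, and in the 6 libraries 99.1 to 99.2% of values of up to 20 reads came out whole within 0.1, so reads could be recovered. An intron-rich gene therefore has a lower RPKM than per exon length.

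Genes with at least 1 RPKM in at least 2 of the 25 libraries were fitted with limma 3.58.1 (R 4.3.3) on log2(RPKM + 1), with 9 group means, trend and robust empirical Bayes (16 residual degrees of freedom before moderation). P-values were Benjamini-Hochberg adjusted over all 13850 genes. Errors of log2 changes are SE. Shares of reads were tested with an exact permutation test (Python 3.11.15, scipy 1.17.1). Genes named are called, non-overlapping genes that average 5 RPKM or more in their higher group (up to 12 a direction), up to 4 per list by p, a fixed set of astrocyte and cell cycle genes, 6 per sign of the step difference and 3 small RNAs; others are said to be named after their values were seen. Members and lists were chosen with earlier results of these data known. A few genes are not reported here. No fold is given where the lower group had at most 3 reads. Simulated data for day 14 against day 7 had 200 genes changed before the filter and 12642 genes tested after it. Of the changes, 46% of 2-fold and 65% of 4-fold ones were recovered, where changed genes lost to the filter count as missed. Of the calls, 5.93% were false. Each gene had the same spread in all simulated libraries, so libraries that stand apart are not covered. Alternatives were another pseudocount, filter, scaling, voom, CPM, fewer libraries, plain empirical Bayes, array weights, a replicate block and leaving out libraries.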

Additional observations from a re-analysis of the deposited data

How the results depend on the processing

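The count of genes called between day 14 and day 7 (19, of which 7 higher and 12 lower) and of called step differences (76) moved with the processing. Voom gave 47 (22 higher, 25 lower), log2(CPM + 1) gave 61 (21 higher, 40 lower) and 142 step differences, and no filter gave 44 (28 higher). Median-of-ratios scaling gave 15 higher, 3 lower and 49 step differences, quantile normalization 12 higher, 5 lower and 50, and scaling without mitochondrial genes 4 lower. A pseudocount of 0.1 gave 4 higher, a filter of 5 RPKM 32 step differences and array weights 199. Limma called 0 genes in the 6 libraries alone (0 higher, 0 lower, 914 at an unadjusted p below 0.05) and in the 9 time course libraries (938), with 0 step differences in the second. Fewer samples enter these fits, and the part of this in the counts was not tested. Leaving out single libraries gave 0 to 24 calls, 0 to 13 higher, 0 to 14 lower and 21 to 217 step differences. Leaving out day 14 replicate 1 and day 7 replicate 3 together, chosen after seeing the data, gave 3 (0 higher, 3 lower). The cause of all these shifts was not tested.

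Deviations of same-numbered libraries from their day means had correlations of -0.095 to 0.118 over 9 pairs, 1 of them above 0.1. The labels do not say whether libraries with the same number share a preparation, and these correlations cannot decide it. With a replicate block in the time course libraries limma called 0 genes (0 higher, 0 lower, 991 at an unadjusted p below 0.05) and 0 step differences. Over all alternatives, results of single named genes stayed on their side of the threshold 4369 times, lost a call 212 times and gained one 46 times. Only a called gene can lose a call, and most named genes were not called. Of the 22 or 23 alternatives run for a gene, each of the 7 higher genes passed 11 to 14. Each of the 12 lower genes passed 6 to 16. Uncalled genes did not always keep their direction, as 49 of 52 mitosis genes were positive with all libraries and 2 without day 7 replicate 3. The 6 libraries hold 4011134 to 8671391 reads. Because the RPKM is per gene span, the reads behind a given RPKM depend on the length of the gene. Over the day 14 libraries Cdk6, with a mean of 0.83 RPKM, had 3252 reads, and Renbp, with 1.32 RPKM, had 240.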

Other observations

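Some genes that voom called in the late step beyond the 19 fall in no list, and each was called by at least 1 other alternative. Ampd3, an AMP deaminase, and Emc8, of the membrane insertion complex of the endoplasmic reticulum, had voom log2 changes of 1.16 and 0.66 between day 14 and day 7. The coactivator Zmiz1, the DNA-binding protein Fubp1 and the membrane skeleton gene Epb41 had voom log2 changes of -0.41, -0.49 and -0.79. Without day 7 replicate 2, the 3 genes that limma called were the predicted genes Gm22631, Gm22715 and Gm24561, all lower on day 14, and limma called none of them with all libraries.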
